A study of Mus musculus with 4 samples.

Results

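The ligands and receptors of the glial cell line-derived neurotrophic factor (GDNF) family were examined in dorsal root ganglia of the mouse, which hold the cell bodies of the sensory neurons of the spinal nerves. The 8 genes, of 18193 with a probe set of their own, were Ret, Gfra1, Gfra2, Gfra3, Gfra4, Gdnf, Nrtn and Artn. Every Affymetrix probe set whose platform annotation gave 1 of these symbols was taken, which made 15 probe sets of the 45101 on the arrays. Total RNA from freshly dissected ganglia was hybridised to 4 arrays. Per the labels, 2 arrays held RNA from one level of ganglia, called the sample-2 level here, and 2 held RNA from the other, called the sample-1 level. The dissection is the only treatment given. The labels do not name the levels, the strain, the age or the number of animals, and a suffix in the titles, which was used to number the arrays, is not explained. Since nothing shows that 2 arrays of 1 level were made from different animals, each p-value covers the spread between arrays alone, and that spread may be technical. All 14 genes on a list of pan-neuronal and sensory neuron markers passed the filter on low signal, and sample-1 array 2 stood apart from the other 3 arrays in skeletal muscle genes. The comparison asked which of these genes differed between ganglia of the 2 levels.

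GDNF, neurturin and artemin are secreted growth factors. Each binds a preferred co-receptor anchored in the outer membrane, GFRα1 for GDNF, GFRα2 for neurturin and GFRα3 for artemin, and the pair then activates the receptor tyrosine kinase RET. GFRα4 is the co-receptor of persephin. In sensory ganglia Ret marks most nonpeptidergic nociceptors, the C-fibre low-threshold mechanoreceptors and some large mechanoreceptors, while Gfra3 is found mainly in peptidergic nociceptors, and the ligands are made largely by skin, other targets and glia.

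Ret was higher at the sample-2 level, by 1.26-fold in mean intensity on its brighter probe set. That difference only just passed (limma adjusted p = 0.0498), and the second Ret probe set, also higher, did not pass (0.308). The 5 probe sets of Gfra2 and the 1 of Gfra3 also lay above their sample-1 means, by 1.16-fold to 1.57-fold for Gfra2 and 1.18-fold for Gfra3, but none passed the test. Gfra4 and the 2 brighter Gfra1 probe sets had ratios of 0.925 to 1.02, and the third Gfra1 probe set had 1.15, also without passing. Of the ligands, Nrtn alone had enough signal to be tested. Differences were tested with limma on log2(intensity + 16) over 27022 probe sets, after those under the 40th percentile of signal (an intensity of 14.3) were left out. The Benjamini-Hochberg adjusted p had to lie under 0.05. Of the 15 probe sets 13 passed the filter, and 1 of these, for Ret, passed the test, against 0.622% of all tested probe sets in either direction and 0.222% in the upward direction.

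Ret encodes the shared signalling receptor. Its brighter probe set, 1436359_at, had intensities of 3222 and 3163 on the sample-2 arrays, against 2576 and 2475 on the sample-1 arrays. The levels did not overlap, and the gap between them was larger than the spread between arrays of either level. The means were 3192 ± 42.1 at the sample-2 level and 2526 ± 71.4 at the sample-1 level (SD, n = 2 each), a difference of 0.34 ± 0.07 on the log2 scale (SE; 95% interval 0.19 to 0.48; limma adjusted p = 0.0498). This call sat at the threshold and was lost when any 1 of the 4 arrays was left out, with adjusted p from 0.0969 to 0.25, while the difference stayed between 0.31 and 0.36.

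The second Ret probe set, 1421359_at, had 838 and 798 at the sample-2 level, against 686 and 695 at the sample-1 level. The arrays again did not overlap. The difference was 0.24 ± 0.09 (SE; 95% interval 0.05 to 0.43), and it did not pass when adjusted over all probe sets (limma adjusted p = 0.308). Both Ret probe sets thus lay higher on every sample-2 array, with 1 of them past the test.

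**Figure D1:**
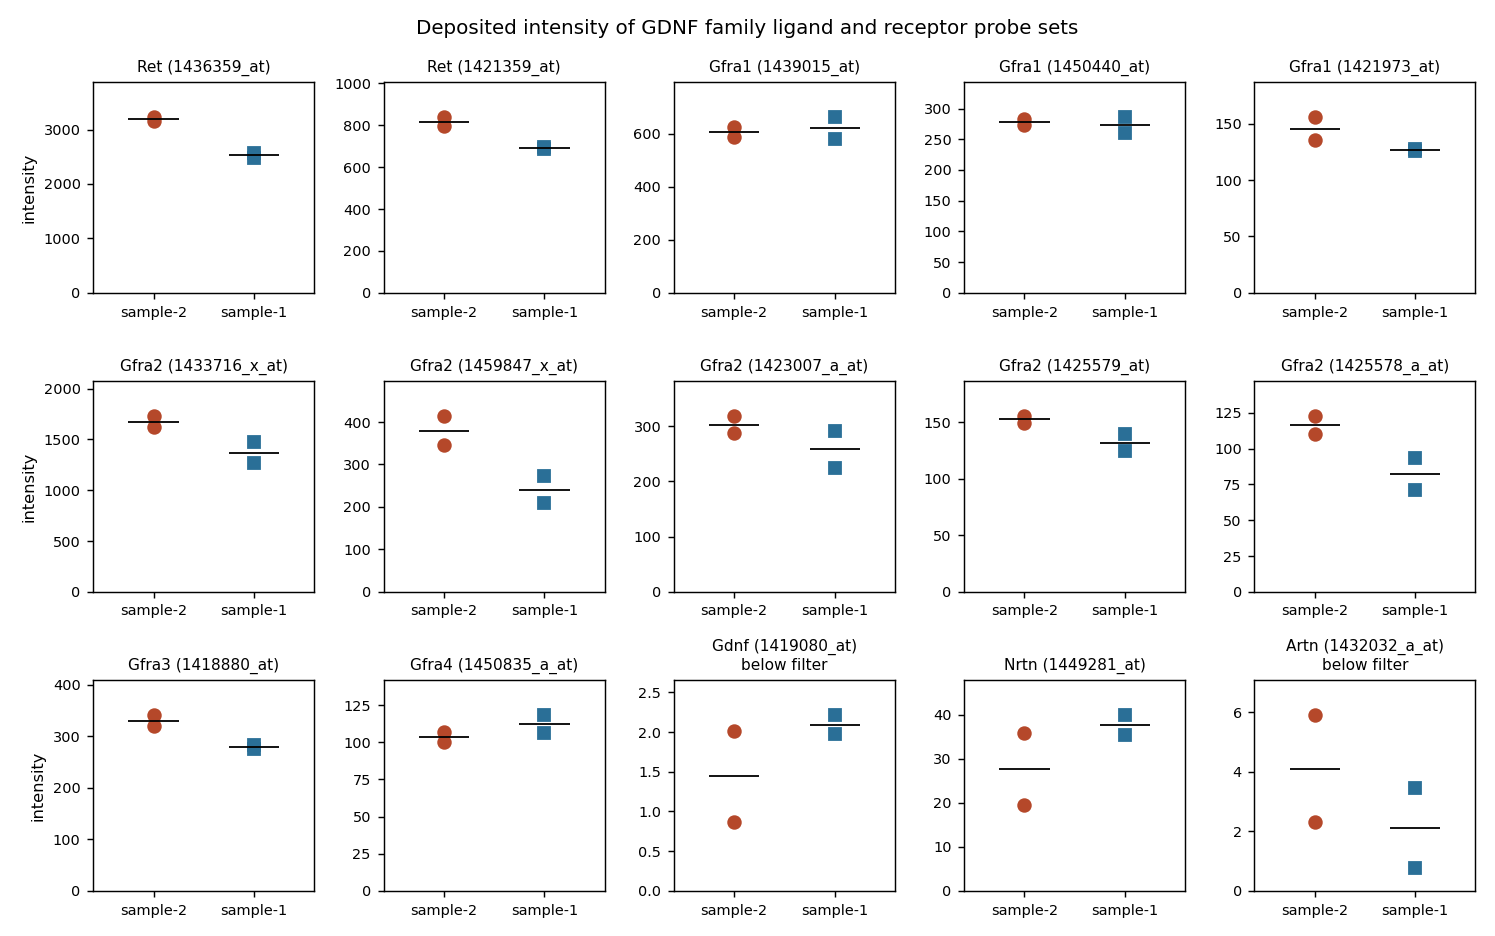
Deposited intensity (linear scale from 0, each panel with its own axis) of the 15 probe sets, with sample-2 arrays as circles, sample-1 arrays as squares and bars at the mean of 2 arrays. Both Ret panels and 4 of the 5 Gfra2 panels show no overlap between levels, while Gfra4, Gdnf, Nrtn, Artn and 2 of the 3 Gfra1 panels overlap.

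Gfra2 encodes the preferred co-receptor of neurturin. Its brightest probe set, 1433716_x_at, had 1621 and 1727 at the sample-2 level, against 1470.5 and 1272 at the sample-1 level. The next, 1459847_x_at, had 413 and 345 at the sample-2 level, against 208 and 273 at the sample-1 level. Neither overlapped between levels, although the arrays within each level differed more from one another than they did for Ret. The differences were 0.29 ± 0.09 (SE, limma adjusted p = 0.208) and 0.63 ± 0.14 (SE, limma adjusted p = 0.0774). The suffix _x_at marks probes that can match more than 1 transcript. With each array left out in turn, 1459847_x_at differed by 0.44 to 0.81 (limma adjusted p from 0.0335 to 0.276), and it passed in 1 of these 4 fits, that without sample-1 array 2, which stood apart in muscle genes. The brightest probe set differed by 0.18 without sample-1 array 2 and by at most 0.39, without sample-1 array 1.

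The other 3 Gfra2 probe sets gave the same sign, also with each array left out, but their size depended on the array. On 1425578_a_at the arrays read 122 and 110.3 at the sample-2 level, against 93.1 and 71.2 at the sample-1 level (difference 0.44, limma adjusted p = 0.319). On 1425579_at they read 155 and 149.97 at the sample-2 level, against 124 and 140 at the sample-1 level (difference 0.19, limma adjusted p = 0.666). On 1423007_a_at they read 287 and 318 at the sample-2 level, against 224 and 292 at the sample-1 level, with overlap (difference 0.23, limma adjusted p = 0.583). It was 0.049 without sample-1 array 1 and 0.41 without sample-1 array 2. Over the 4 fits that leave out an array, 1425578_a_at differed by 0.28 to 0.60 and 1425579_at by 0.11 to 0.26, with the lowest and highest values both reached without a sample-1 array. The 5 probe sets measure 1 gene in the same 4 RNA samples and are no replicates of one another. None of the 5 passed, and the mean of their differences was 0.35.

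Gfra3 encodes the preferred co-receptor of artemin. Its probe set read 320 and 340.4 at the sample-2 level, against 276 and 283 at the sample-1 level. The levels did not overlap, and the means were 330.3 ± 14.3 at the sample-2 level and 279 ± 5.58 at the sample-1 level (SD, n = 2 each). The difference of 0.23 ± 0.11 (SE; 95% interval -0.01 to 0.46) did not pass (limma adjusted p = 0.472).

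Gfra1 encodes the preferred co-receptor of GDNF. Its brightest probe set, 1439015_at, read 627 and 587 at the sample-2 level, against 662 and 582 at the sample-1 level. The second, 1450440_at, read 283 and 274 at the sample-2 level, against 286 and 261 at the sample-1 level. On both probe sets the sample-2 arrays lay inside the range of the sample-1 arrays, so the levels overlapped fully. The differences were -0.03 (95% interval -0.25 to 0.18, limma adjusted p = 0.946) and 0.03 (95% interval -0.22 to 0.27, limma adjusted p = 0.962). The sign of each turned in 2 of the 15 alternative settings. The third and dimmest, 1421973_at, read 136 and 156 at the sample-2 level, against 126 and 128 at the sample-1 level, without overlap (difference 0.18, 95% interval -0.12 to 0.47, limma adjusted p = 0.703), and differed by 0.088 to 0.27 with an array left out.

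Gfra4, the co-receptor of persephin, read 100.4 and 107 at the sample-2 level, against 118 and 106 at the sample-1 level. The levels overlapped, and the difference was -0.10 (95% interval -0.41 to 0.22, limma adjusted p = 0.866). With 2 arrays a level, these intervals do not exclude shifts of Gfra1 and Gfra4 inside them. They are not a limit of detection, since differences of 0.44 and 0.63 on Gfra2 probe sets did not pass either.

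**Figure D2:**
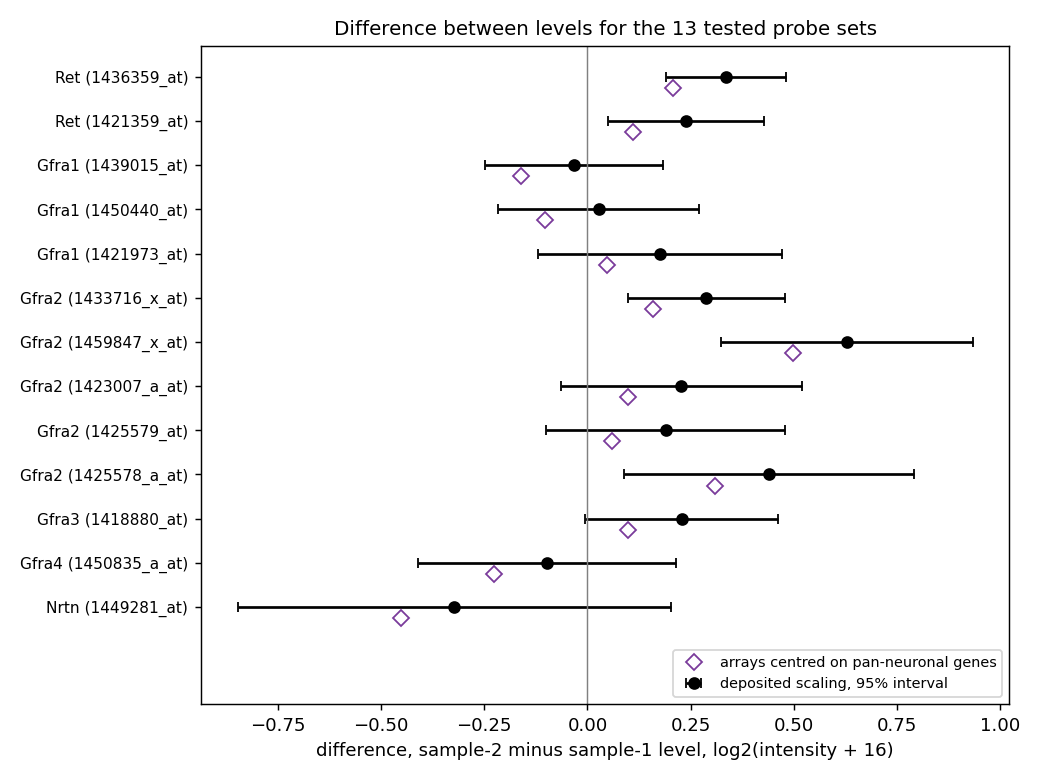
Difference between levels (sample-2 minus sample-1, log2(intensity + 16), horizontal axis) for the 13 tested probe sets, with 95% intervals from limma as bars and, as open diamonds, the difference after each array was centred on 14 pan-neuronal genes. The 2 Ret probe sets and 3 of the 5 Gfra2 probe sets have intervals above 0, and every diamond lies lower than its filled point, by 0.129.

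Over the 13 tested probe sets, 10 lay above 0 and 3 below, with a median difference of 0.23. Over all 27022 tested probe sets the median was 0.00 and 51.1% lay above 0. Of the 13, 8 had both sample-2 arrays above both sample-1 arrays, against 21.1% of all tested probe sets, and 0 had both below, against 20.1%. This was not particular to the family. Counted by gene and not by probe set, 64.3% of the 14 pan-neuronal genes were also higher without overlap, against 20.5% of all genes. On the nonpeptidergic, peptidergic and C-fibre lists given below the share was 80% to 87.5%, and on the large-fibre list 22.2%. The family and these lists were chosen with earlier results of these data known, so the shares are not independent of the data. An unadjusted p under 0.05 was found for 5 of the 13, against 10.9% of all. Of the 10 co-receptor probe sets 0 passed the adjusted test in limma and 3, all of Gfra2, had an unadjusted p under 0.05. The 8 probe sets without overlap came from 4 genes, Ret, Gfra1, Gfra2 and Gfra3, and 4 of them were from Gfra2 alone.

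Whether the receptors differed from one another was examined as the log2 ratio of their brightest probe sets within each array, for 5 pairs. The ratio has no meaning as a level, since the probes differ, but its change between levels does. Ret over Gfra1 stood at 2.33 and 2.40 on the sample-2 arrays, against 1.94 and 2.06 on the sample-1 arrays, a difference of 0.37 without overlap. Gfra2 over Gfra1 differed by 0.32 and Ret over Gfra4 by 0.43, both without overlap, and Ret over Gfra3 by 0.11 without overlap. Ret over Gfra2 differed by 0.05, with overlap. These changes hold for the brightest probe sets only. Between levels the 2 Ret probe sets differed by 0.34 and 0.24, against 0.63 for Gfra2 1459847_x_at and 0.18 for Gfra1 1421973_at. Pairs with other probe sets were not examined. With 2 arrays against 2 the smallest p that the two-sided exact permutation test allows is 0.333, and the 4 pairs without overlap had that p (0.416 adjusted over the 5 pairs), so these changes in ratio could not be tested to any useful level.

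The ligands gave little signal in the ganglia. Nrtn, neurturin, read 19.4 and 35.9 at the sample-2 level, against 39.9 and 35.4 at the sample-1 level. The levels overlapped, with sample-2 array 1 the lowest, and the difference was -0.32 ± 0.24 (SE; 95% interval -0.85 to 0.20; limma adjusted p = 0.689). Without sample-2 array 1 it was -0.05. The pseudocount of 16 makes a difference at such low intensity smaller than the true ratio.

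Gdnf read 2.02 and 0.873 at the sample-2 level, against 1.98 and 2.21 at the sample-1 level. Artn, artemin, read 2.30 and 5.89 at the sample-2 level, against 0.765 and 3.47 at the sample-1 level. Both overlapped between levels and lay under the filter of 14.3 on every array, so neither was tested and no fold is given. No detection calls were used, so low intensity has no call against background. Persephin, Pspn, the fourth ligand of the family and outside the 8 genes, read 21.0 and 16.9 at the sample-2 level, against 19.4 and 8.39 at the sample-1 level, with overlap (difference 0.25, limma adjusted p = 0.819).

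Beyond receptors and ligands, a list of 55 genes of RET signalling was examined, of which 44 were tested by their brightest probe set. In this count 0 passed the adjusted test in limma, against 0.842% of 13543 genes, and 6 had an unadjusted p under 0.05, against 12.3%. The median difference was 0.04, against -0.01 over all genes, with 25 genes above 0 and 19 below. The sample-2 arrays lay above the sample-1 arrays without overlap for 11 of the 44 genes (25%, against 20.5% of all genes) and below them for 5 (11.4%, against 22.3%).

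Among co-receptors and sorting receptors, Sorl1 stood out by another of its probe sets. Sorl1 encodes SorLA, a sorting receptor that binds GDNF with GFRα1 and carries them into the cell. On 1453003_at it read 831 and 829.7 at the sample-2 level, against 551 and 484 at the sample-1 level, without overlap. It rose by 0.67 ± 0.10 (SE, limma adjusted p = 0.0107), and the call held without each array in turn (adjusted p from 0.00908 to 0.0459). Its brightest probe set, 1426258_at, read 1244 and 1073 at the sample-2 level, against 899 and 811 at the sample-1 level (difference 0.43, limma adjusted p = 0.078). The third differed by 0.39 (limma adjusted p = 0.255), so the 3 probe sets had 1 sign. Each gene with several probe sets has several chances to pass, and Sorl1 was the 1 pathway gene with any tested probe set past the threshold.

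The other pathway genes with the largest differences did not pass. Plcg1, a phospholipase that docks on activated RET, read 184 and 203 at the sample-2 level, against 143 and 129 at the sample-1 level (difference 0.46, limma adjusted p = 0.166). Spry4, a feedback inhibitor of receptor tyrosine kinase signalling, read 167 and 173 at the sample-2 level, against 150.1 and 113 at the sample-1 level (difference 0.35, limma adjusted p = 0.415). Rap1gap, which switches off the small GTPase Rap1 and binds RET, read 541 and 466 at the sample-2 level, against 583 and 709 at the sample-1 level (difference -0.35, limma adjusted p = 0.26). None of these 3 overlapped between levels. Without sample-1 array 2 the difference of Spry4 was 0.17 and that of Rap1gap -0.21, and without sample-1 array 1 they were 0.53 and -0.48.

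By role, the 12 tested adaptor and docking proteins had a median difference of 0.05, with 7 above 0 and 5 below. The 15 tested kinases, lipases, exchange factors and GTPases and their regulators had a median of 0.00, with 7 above and 8 below. The 6 transcriptional targets and feedback inhibitors, among them Etv4, Etv5 and Dusp6, had a median of -0.04, with 3 above and 3 below. The 6 turnover and negative regulators had a median of 0.09, and the 4 co-receptors and sorting receptors 0.24. These groups were formed after the values were seen and none of their genes passed by its brightest probe set.

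**Figure D3:**
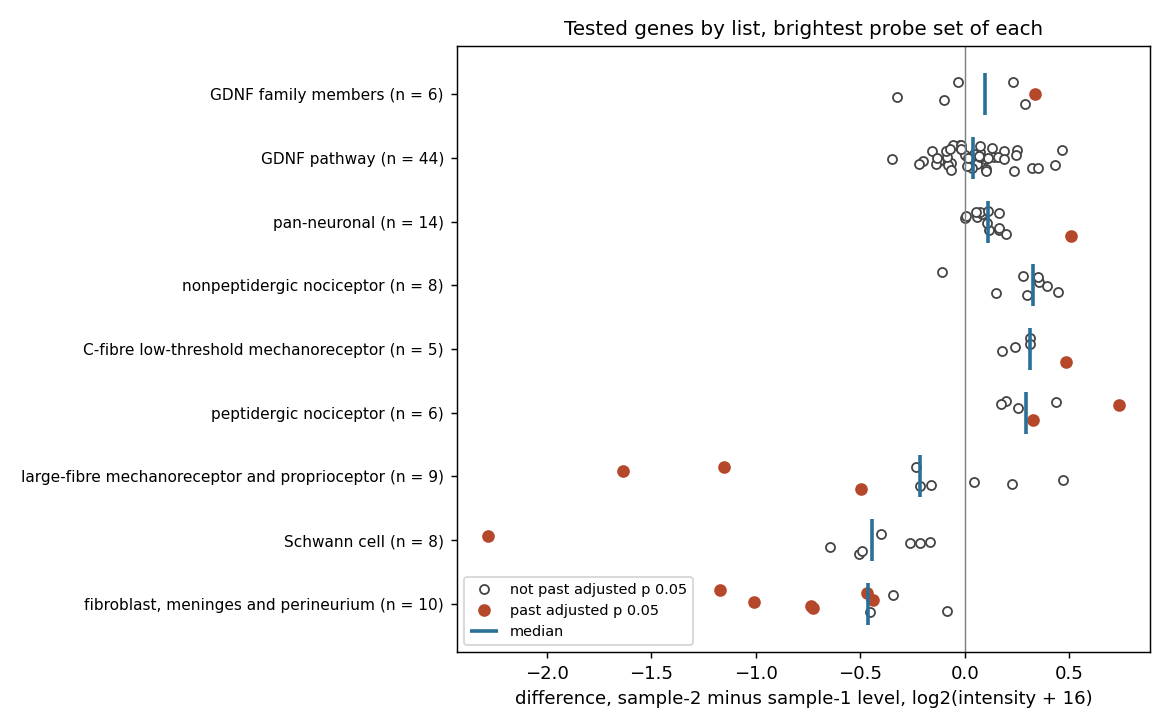
Difference between levels (sample-2 minus sample-1, log2(intensity + 16), horizontal axis) for each tested gene by its brightest probe set, 1 row per list, with filled points past adjusted p 0.05 and a bar at the median. In the top row Ret lies at 0.34, Gfra2 at 0.29, Gfra3 at 0.23, Gfra1 at -0.03, Gfra4 at -0.10 and Nrtn at -0.32. The medians of the small-fibre lists are 0.29 to 0.32, and that of the pathway list is 0.04.

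Markers of neurons and of other tissue also differed between the levels. The 14 pan-neuronal genes, all tested, had a median difference of 0.11, 13 of them above 0, and 1, the synaptic vesicle protein gene Syt1, passed (0.51, limma adjusted p = 0.019). The call on Syt1 was lost without sample-2 array 1 (adjusted p = 0.0542 in limma) and without sample-1 array 2 (0.0945). The 14 genes' summed intensity was 54085 and 51466 on the sample-2 arrays, against 49094 and 49991 on the sample-1 arrays. All 10 fibroblast, meninges and perineurium genes lay below 0, 6 of them past the test, among them Ptgds, a prostaglandin D synthase (-1.17), and Mfap5, a microfibril protein (-1.01), with sums of 9050 and 8571 at the sample-2 level, against 15377 and 13464 at the sample-1 level. Because the arrays share a common target mean, values are relative to all RNA on an array. In such bulk samples a difference in the number of cells of a type and one in RNA per cell cannot be told apart.

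With every array centred on the mean of the 14 pan-neuronal genes, the brighter Ret probe set differed by 0.21 ± 0.07 (SE, limma adjusted p = 0.128) and the other by 0.11 (limma adjusted p = 0.555). Under that centring the Gfra2 probe sets differed by 0.06 to 0.50 and Gfra3 by 0.10. The brightest Gfra1 probe set differed by -0.16, and 1450440_at by -0.10 where the deposited scaling gave 0.03. Under that centring 0 of the 13 probe sets passed in limma, Ret included, while 619 of all probe sets did, 52 higher and 567 lower. An unadjusted p under 0.05 was found for 2 of the 13. The share of all probe sets with such a p under this centring was not taken, so the 2 have no background.

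The neuron classes known to carry these receptors were set beside them, by lists chosen with earlier results of these data known. Of 8 tested nonpeptidergic nociceptor genes 7 lay above 0 with a median of 0.32, 0 passed in limma and 7 had an unadjusted p under 0.05. Their summed intensity was 11223 and 10649 on the sample-2 arrays, against 9132 and 8742 on the sample-1 arrays, a ratio of 1.22. All 5 tested genes of C-fibre low-threshold mechanoreceptors lay above 0 with a median of 0.31, and Th, tyrosine hydroxylase, passed (0.48, limma adjusted p = 0.0461). All 6 tested peptidergic nociceptor genes lay above 0 with a median of 0.29, and Trpv1, the heat- and capsaicin-gated channel, and Tac1, the substance P precursor, passed (0.74 and 0.33, limma adjusted p = 0.00432 and 0.0463). With the pan-neuronal centring applied to Ret above, Trpv1 passed (0.61, limma adjusted p = 0.00575), while Tac1 (0.20, limma adjusted p = 0.136) and Th (0.36, limma adjusted p = 0.0816) did not.

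Of 9 large-fibre genes 6 lay below 0 with a median of -0.22, and 3 fell, Pvalb, Calb2 and Cntnap2. The differences of Pvalb and Calb2, calcium-binding proteins of large sensory neurons, were -1.64 and -1.15 (limma adjusted p = 0.000397 and 0.0256). Both genes read highest on sample-1 array 2, which stood apart in muscle genes. Without that array the differences were -1.38 for Pvalb and -0.95 for Calb2. Cntnap2, a cell adhesion protein of the axon, differed by -0.50 (limma adjusted p = 0.0474). Of the 3 genes above 0, Ntrk2, the BDNF receptor (0.47, limma adjusted p = 0.0784), and Calb1, a calcium-binding protein (0.23, limma adjusted p = 0.352), were higher on both sample-2 arrays without passing. These classes overlap in the receptors they carry, and the part of cell class in the Ret difference was not tested. The calls on Th and Tac1 each depended on the array left out, with adjusted p from 0.042 to 0.192 and from 0.045 to 0.245, and so did those on Calb2 (0.0149 to 0.136) and Cntnap2 (0.0453 to 0.244).

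Autonomic neurons, which can also carry Ret, were read from their own markers. Of 6 tested genes 3 lay above 0 and 3 below, and their summed intensity was 356 and 310.3 on the sample-2 arrays, against 225 and 182 on the sample-1 arrays. The defining gene Dbh, which makes noradrenaline, read 27.0 and 24.6 at the sample-2 level, against 32.3 and 11.7 at the sample-1 level, with overlap (limma adjusted p = 0.868). The 1 gene past the test was Chrna3, a nicotinic receptor subunit, at 194 and 183 on the sample-2 arrays, against 46.9 and 59.0 on the sample-1 arrays (1.57, limma adjusted p = 0.000668). Without Chrna3 the other 5 genes summed to 163 and 127 on the sample-2 arrays, against 178 and 123 on the sample-1 arrays, so the higher sum of the list rested on Chrna3 alone. Slc6a2, the noradrenaline transporter, read 19.8 and 20.9 at the sample-2 level, against 29.6 and 29.3 at the sample-1 level, without overlap (limma adjusted p = 0.669). Dbh and Slc6a2 were named after their values were seen.

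The summed intensity of 10 muscle genes was 1866 and 1207 on the sample-2 arrays, against 1605 on sample-1 array 1 and 8511 on sample-1 array 2. All 10 lay below 0, and the 1 past the test was Myh2, a myosin heavy chain (-1.99, limma adjusted p = 0.0319), a call that was lost when sample-1 array 2 (0.15) or the first sample-2 array (0.0718) was left out. Without sample-1 array 2 the brighter Ret probe set differed by 0.31 and Gfra3 kept its sign. Neutrophil and red cell genes were higher at the sample-2 level, 6 of 7 past the test, among them Lcn2 (1.14) and S100a9 (1.08), both genes of abundant neutrophil proteins, with sums of 6579 and 8341 on the sample-2 arrays, against 3274 and 3895 on the sample-1 arrays. Schwann cell genes lay below 0 in all 8 cases, 1 of them, the myelin protein gene Pmp2, past the test (-2.28, limma adjusted p = 0.000366), with sums of 18376 and 14179 on the sample-2 arrays, against 20728 and 18954 on the sample-1 arrays. Satellite glial cell genes lay below 0 in all 6 cases, with 0 past the test in limma and 0 with an unadjusted p under 0.05. Their part in the differences of the receptor genes was not tested.

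The genes whose pattern over the 4 arrays lay closest to that of the brighter Ret probe set were sought among 11942 genes by the root-mean-square difference of centred log2 values. The 5 closest were Plxnc1, a semaphorin receptor (0.0125), Cckar, a cholecystokinin receptor (0.014), Cad, an enzyme of pyrimidine synthesis (0.0162), Ebf1, a transcription factor (0.0211), and Acpp, an acid phosphatase (0.0214). Plxnc1 read 2299 and 2229 at the sample-2 level, against 1819 and 1722 at the sample-1 level (difference 0.35, limma adjusted p = 0.0561). Acpp read 2784 and 2681 at the sample-2 level, against 2277 and 2153 at the sample-1 level (difference 0.30, limma adjusted p = 0.0883). By this probe set 0 of the 5 passed in limma and 4 had an unadjusted p under 0.05, against 12.3% of all genes. The 5 were picked for values like those of Ret on these same arrays. Their differences near that of Ret thus follow from the choice and are no separate result. Of the 5 tested probe sets of Plxnc1, 1 passed the adjusted test.

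With 4 arrays many genes fit such a pattern. The other Ret probe set lay at 0.0572, and 164 of the 11942 genes were closer than that. The brightest Gfra2 probe set lay at 0.0716, with 348 genes closer, and Gfra3 at 0.0747, with 396 closer. At larger distances lay the brightest Gfra1 probe set at 0.191, Gfra4 at 0.222 and Nrtn at 0.388. The order depended on the probe set, since Gfra2 1459847_x_at lay at 0.224, as far as Gfra4 and farther than all 3 Gfra1 probe sets (0.111 to 0.191).

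**Figure D4:**
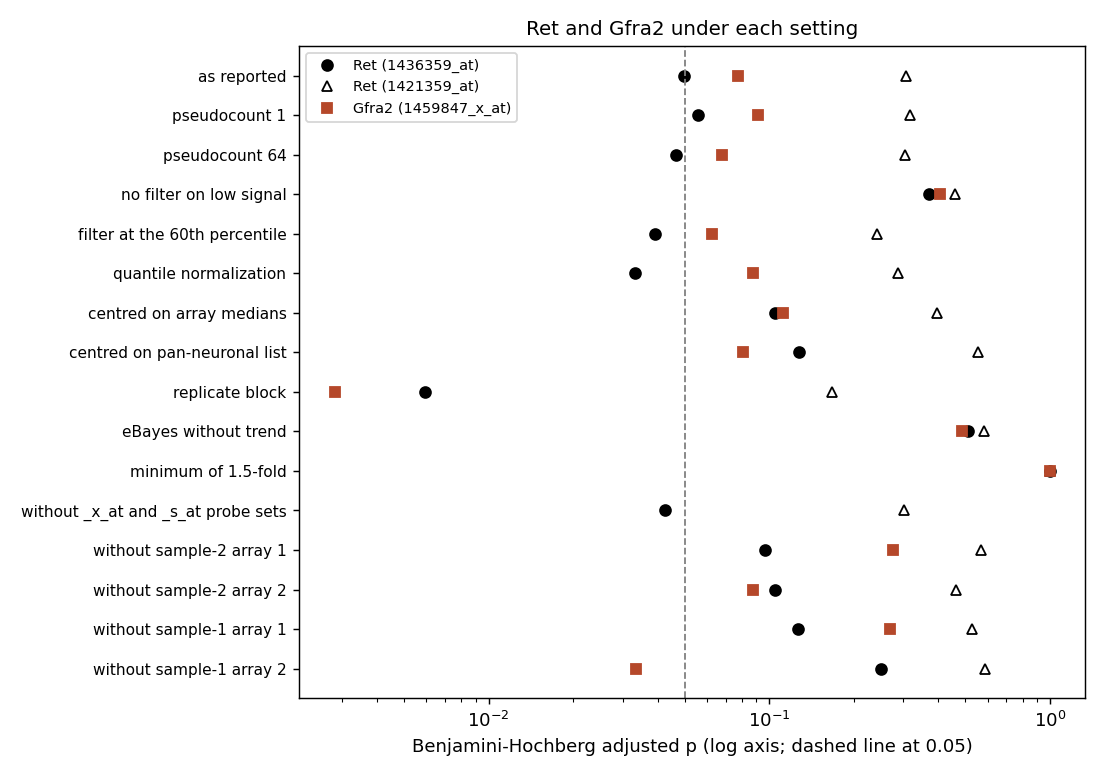
Adjusted p (log axis, limma) of both Ret probe sets and of Gfra2 1459847_x_at under the reported fit and each alternative (15 for Ret and 14 for Gfra2, since leaving out _x_at probe sets removes it), with a dashed line at 0.05. The brighter Ret probe set lies above 0.05 in 10 of the 15, and the other Ret probe set lies above 0.05 in all 15.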

How the data were processed

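The authors deposited 1 linear intensity for each probe set and array. The deposited intensity of every array had a mean of 150 once its highest and lowest 2% were trimmed, which shows a common scaling target. How they were computed is not given in the sources used here. Gene names came from the platform annotation, and all 15 probe sets matched a RefSeq gene (GRCm38.p6) by gene ID. Of the probe sets other than the 64 controls, 34945 had 1 symbol, 932 several and 9160 none, and only those with 1 symbol were named. Pathway genes with no such probe set were not analysed here.

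Intensities were taken as log2(intensity + 16). Array medians lay within 0.0461 of each other on that scale, so the deposited scaling was kept. Controls and probe sets under the 40th percentile of the mean were left out, and 27022 were fitted with limma 3.58.1 (R 4.3.3; lmFit and eBayes, with an intensity trend). There was no covariate, and the sample-1 level was subtracted from the sample-2 level. The fit had 2 residual and 9.71 prior degrees of freedom. The number of arrays limits the precision. Arrays correlated at r = 0.987 within both levels and at 0.982 to 0.986 between levels, across probe sets. The fit was tested on data simulated from its own model with independent arrays, which does not test whether that model holds for these 4 arrays.

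A gene was represented by its brightest tested probe set, except that every probe set of the 8 genes is given. Named are all 8 genes, the 4 pathway genes with the largest difference and any past the threshold, up to 2 genes past it per marker list (by size), and the 5 genes most like Ret (among genes with a mean no lower than the probe sets' median). Sorl1 by a further probe set, Cntnap2, Ntrk2, Calb1, Dbh, Slc6a2, Etv4, Etv5 and Dusp6 were added after their values were seen. The members and lists were chosen with earlier results of these data known. Alternatives were pseudocounts of 1 and 64, no filter or one at the 60th percentile, arrays quantile-normalized or centred on their medians or on pan-neuronal genes, a block for the array number, no trend in eBayes, at least 1.5-fold, no probe sets ending in _x_at or _s_at, and leaving out each array.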

Additional observations from a re-analysis of the deposited data

How the results depend on the processing

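The brighter Ret probe set kept its sign in all 15 alternatives, at 0.21 to 0.36, and passed the test in 5 of them. The number of the 8 genes' probe sets past the threshold was 1, and became 0 with a pseudocount of 1, with no filter, with centring on array medians or on pan-neuronal genes, without the intensity trend and with a minimum of 1.5-fold. It was 0 to 1 when an array was left out. Where it was 1 without sample-1 array 2, the probe set was Gfra2 1459847_x_at (0.81) and not Ret. The array number as a block gave 2, Ret 1436359_at (limma adjusted p = 0.00595) and Gfra2 1459847_x_at (0.00283). Same-numbered arrays did not deviate together when taken across all probe sets (r = 0.0263). That correlation cannot show what the shared number stands for, which the labels do not explain. The count over all probe sets was 168, against 4 with no filter, 104 with centring on medians, 619 with centring on pan-neuronal genes (52 higher and 567 lower, against 60 and 108), 793 with the block, 1 without the trend and 10 with a minimum of 1.5-fold. It was 102 to 241 when an array was left out, lowest without sample-2 array 2. Pathway genes past the threshold numbered 0, and 1 with centring on pan-neuronal genes (Rap1gap, -0.48), with the block (Sorl1) and by any probe set (Sorl1). Signs turned for Gfra1 1439015_at without sample-2 array 2 (0.014) or sample-1 array 1 (0.058; -0.12 to 0.058 over the 4 arrays left out), for Gfra1 1450440_at with pan-neuronal centring (-0.10) or without sample-1 array 2 (-0.034; range -0.034 to 0.089), for Pspn without sample-1 array 2 (-0.023; range -0.023 to 0.52), and for Dbh without sample-1 array 2 (-0.21; range -0.21 to 0.59). The causes were not tested. With 1 array left in a level, that array was assumed to vary like the rest. Gdnf and Artn, tested only with no filter, had adjusted p = 0.949 and 0.865 there.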
